A study of Homo sapiens with 4 samples.

Results

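Interferon-stimulated genes and the factors that regulate them were followed in SUM159 cells, a triple-negative breast cancer cell line used as a model of metaplastic breast cancer, and in clones of these cells in which NOS2 had been targeted. The set holds 45 genes of the 57500 gene identifiers counted, and its members were taken by gene symbol. Poly(A)-enriched RNA was sequenced from 1 library of parental SUM159 cells and from 1 library each of the NOS2KO clones 1, 5 and 6. The clones came from SUM159 cells that received a double nickase CRISPR plasmid against NOS2, which encodes the inducible nitric oxide synthase iNOS, and were picked after puromycin selection by immunoblots of iNOS and an assay of nitrite and nitrate. Each NOS2KO line is a single clone, and nothing in the labels gives the parental cells a clone or a control plasmid of their own, so loss of NOS2, transfection, drug selection and the choice of single cells cannot be told apart here. No library was treated with interferon or with a drug after selection, as far as the labels say.

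Interferons are secreted proteins that bind receptors on the cell surface and, through the kinases JAK1, JAK2 and TYK2, activate transcription factors of the STAT family. A complex that holds STAT2 and IRF9 binds the interferon-stimulated response element (ISRE) in gene promoters, and STAT dimers bind the gamma-activated site (GAS). The genes switched on in this way encode sensors of foreign RNA, proteins that block viral entry or replication, and proteins that shut the response off again. Many tumour lines hold part of this set at a steady level without added interferon.

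Between 90467395 (parental) and 122171287 (clone 1) counts were assigned to genes per library, so a floor of 3 counts stands at 0.0262 to 0.0332 CPM (counts per TMM-scaled library size). NOS2 had 2 counts in the parental library and 3, 18 and 1 in the libraries labelled clone 1, 5 and 6. So few reads cannot check the knockout, and "labelled clone 5" is written for the library with the most. The line's own markers VIM and CD44 were at 454 CPM or more in every library, EGFR was at 114 to 207 CPM and KRT18 at 303 to 467 CPM. Of the receptor genes taken as low in a triple-negative line, ESR1 and PGR were at 0.741 CPM or less. ERBB2, taken as low too, was at 48.3 CPM in the parental library and at 55.6, 106 and 99.1 CPM in clones 1, 5 and 6. Of 10 markers of other cell types, 6 reached 1 CPM in some library, and their summed level was 205 CPM in the parental library and 165, 688 and 618 CPM in clones 1, 5 and 6. PDGFRB, a receptor of fibroblast-like cells, made up most of that sum in all libraries but clone 1. The leukocyte gene PTPRC was at 4.45 CPM in the parental library and at 68.4, 105 and 41.7 CPM in the clones, while the myeloid markers LYZ and CD68 stayed at or below 0.460 CPM in all 4. The part of these differences in the results below was not tested. With bulk RNA, fewer expressing cells and less RNA per cell cannot be told apart.

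Stretches of promoter are shown for members that met the criterion given below and held a motif, with motif letters in capitals. XAF1 and SAMD9L met it without either motif in their promoter windows, and no window was found for IFITM2, so these are not shown. The motifs were the ISRE core GAAANNGAAA and the GAS core TTCNNNGAA, searched on both strands. Sequences are from RefSeq on GRCh38.p14 and read 5′ to 3′ on the strand of the gene. Where the annotation of the counts places an exon over the stretch, no more than 30 bases around the motif are given. The first set belongs to genes with lower levels in the clones: IRF1 at chr5:132490869-132490917 (minus strand), ISG15 at chr1:1013364-1013419 (plus strand) and ISG20 at chr15:88638937-88638966 (plus strand).
IRF1: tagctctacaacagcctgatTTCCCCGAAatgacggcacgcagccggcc
ISG15: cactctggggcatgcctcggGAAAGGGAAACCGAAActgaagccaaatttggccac
ISG20: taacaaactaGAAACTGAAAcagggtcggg
In the annotation of the counts, the stretch of IRF1 lies outside the gene, upstream of it, that of ISG15 in an intron and that of ISG20 in an exon. Capitals mark a GAS core in IRF1 and ISRE cores in all the others, and those in ISG15 cover 2 overlapping ISRE cores.

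The second set belongs to genes with higher levels in the clones: IFI6 at chr1:27672256-27672368 (minus strand), IFI27 at chr14:94110608-94110670 (plus strand), IFI44L at chr1:78620365-78620394 (plus strand), OAS3 at chr12:112938452-112938473 (plus strand), BST2 at chr19:17405738-17405767 (minus strand) and SAMD9 at chr7:93118086-93118135 (minus strand).
IFI6: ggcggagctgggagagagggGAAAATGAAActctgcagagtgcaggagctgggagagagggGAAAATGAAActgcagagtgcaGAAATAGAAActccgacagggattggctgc
IFI27: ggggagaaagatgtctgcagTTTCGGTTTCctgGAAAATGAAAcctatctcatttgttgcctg
IFI44L: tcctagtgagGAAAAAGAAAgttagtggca
OAS3: agccgggcggGAAAACGAAAcc
BST2: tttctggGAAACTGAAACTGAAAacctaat
SAMD9: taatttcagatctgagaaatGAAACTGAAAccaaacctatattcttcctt
The stretches of IFI6 and SAMD9 lie upstream of the annotated genes, that of IFI27 in an intron, those of IFI44L and OAS3 in exons of these genes, and that of BST2 upstream of it over exons of its neighbours BISPR and MVB12A. IFI6 carries 3 ISRE cores in this stretch, IFI27 carries 2 on opposite strands, and the 2 of BST2 overlap. A GAS core that overlaps the capitals in IFI27 and in BST2 is not marked.

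The members differed in direction. Relative to the parental library, the clones held less mRNA of IRF1, ISG15, ISG20 and XAF1, and more of IFI6, IFI27, IFI44L, IFITM2, OAS3, BST2, SAMD9 and SAMD9L. These 12 of 45 members (26.7%) met the criterion used in the study, an unadjusted p under 0.05 with a log2 fold change above 1 or below -1, here with edgeR's quasi-likelihood test. Values after ± below are standard errors unless an SD is named, and an adjusted p is that of edgeR over all tested genes. Of the 22511 genes tested, 5.34% met it with lower levels in the clones and 4.24% with higher levels. Among the 15280 tested genes at 1 CPM or more in a library, which all 45 members were, the shares were 6.83% and 4.91%. Read against these shares, 4 lower members of 45 lie close to the background and 8 higher members lie above it, but this depends on the library labelled clone 5. Without it, 8 members met the criterion with lower levels, beside 4.63% of the genes of that fit, and 3 with higher levels, beside 3.2%.

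After Benjamini-Hochberg adjustment over all tested genes, no member had an adjusted p under 0.05 with edgeR's quasi-likelihood test, against a background of 0.00444% or 1 gene. The lowest adjusted p among the members was 0.327, for IRF1. By the same test 12 members had an unadjusted p under 0.05, beside 2590 of the 22511 tested genes and 2227 of the 15280 at 1 CPM or more. With DESeq2's Wald test, 5 members met the criterion with lower and 11 with higher levels, beside 5.08% and 7.07% of all genes. By that test 2 members passed after adjustment, IFI6 with an adjusted p of 0.00823 and IRF1 with 0.0276. The share of all genes that passed it after adjustment is not reported here, and edgeR's 0.00444% is not its background. Genes of the other lists passed it too, for example WARS with an adjusted p of 0.000129. Over all alternatives tried, the adjusted p ranged from 0.00823 to 0.739 for IFI6 and from 0.0276 to 0.726 for IRF1. The spread in these tests is estimated between the 3 clones, drawn toward that of the other tested genes, and assumed to hold for the single parental library. An exact permutation test of 1 library against 3 cannot go below p = 0.25. Fitted log2 fold changes of the 45 genes ran from -3.63 to 1.90, with 20 below 0 and 25 above. All tested genes split alike, with 10260 below and 12251 above. The median of the 45 genes was 0.31, beside 0.10 over all tested genes and 0.01 over those at 1 CPM or more.

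**Figure D1:**
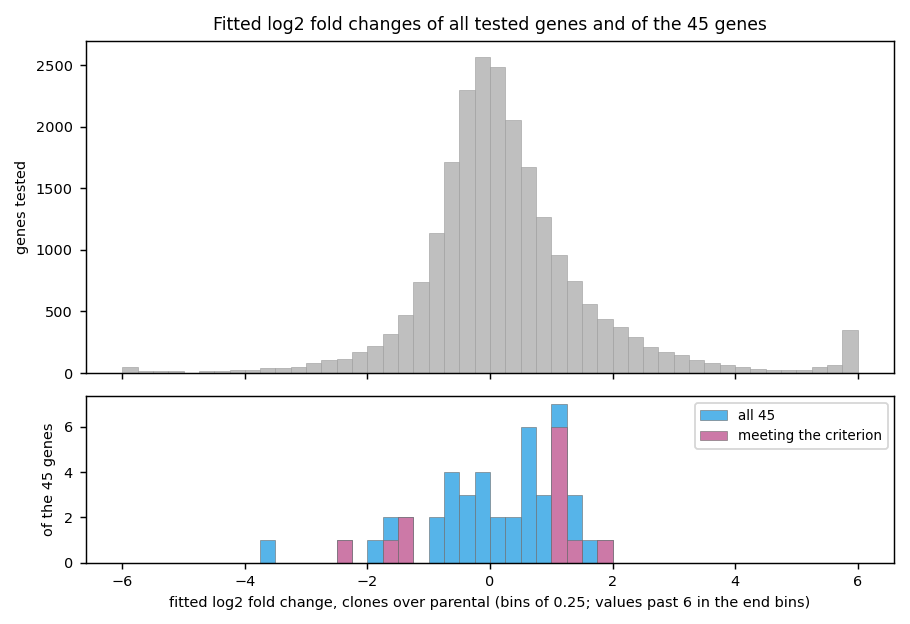
Number of genes per bin of 0.25 of the fitted log2 fold change, clones over parental, for all 22511 tested genes (upper panel) and for the 45 interferon-stimulated genes and regulators (lower panel). The 45 genes spread from -3.63 to 1.90 around a median of 0.31, and the 12 that met the criterion lie on both sides of 0.

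Among the 6 transcription factors, IRF1 alone met the criterion. IRF1 (ENSG00000125347, chr5:132481609-132490798), an activator induced by interferons and inflammatory signals, was at 218 CPM in the parental library and at 48.1, 63.0 and 88.5 CPM in clones 1, 5 and 6. All 3 clones were below the parental value by more than 1 on the log2 scale, and the groups did not overlap. The clones averaged 66.5 ± 20.4 CPM (SD, n = 3). The fitted log2 fold change was -1.71 ± 0.42 (SE, adjusted p = 0.327).

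STAT2, a subunit of the complex that binds the ISRE, stood at 109 CPM in the parental library and at 52.9, 227 and 183 CPM in the clones. Clone 1 was below the parental library and the other two clones were above it, so the groups overlapped and the log2 fold change was 0.50 ± 0.82. The clones differed from each other by a factor of 4.29. IRF9, the DNA-binding subunit of the same complex, was the lowest of the 6 in all libraries, at 0.976 to 2.54 CPM. IRF2, which competes with IRF1 for its sites, ranged only from 28.8 to 34.8 CPM over the 4 libraries. IRF3, which is activated downstream of RNA and DNA sensors, lay between 48.4 and 102 CPM. For IRF7, the factor that amplifies production of type I interferons, the range was 6.36 to 11.8 CPM. None of these 5 met the criterion.

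**Figure D2:**
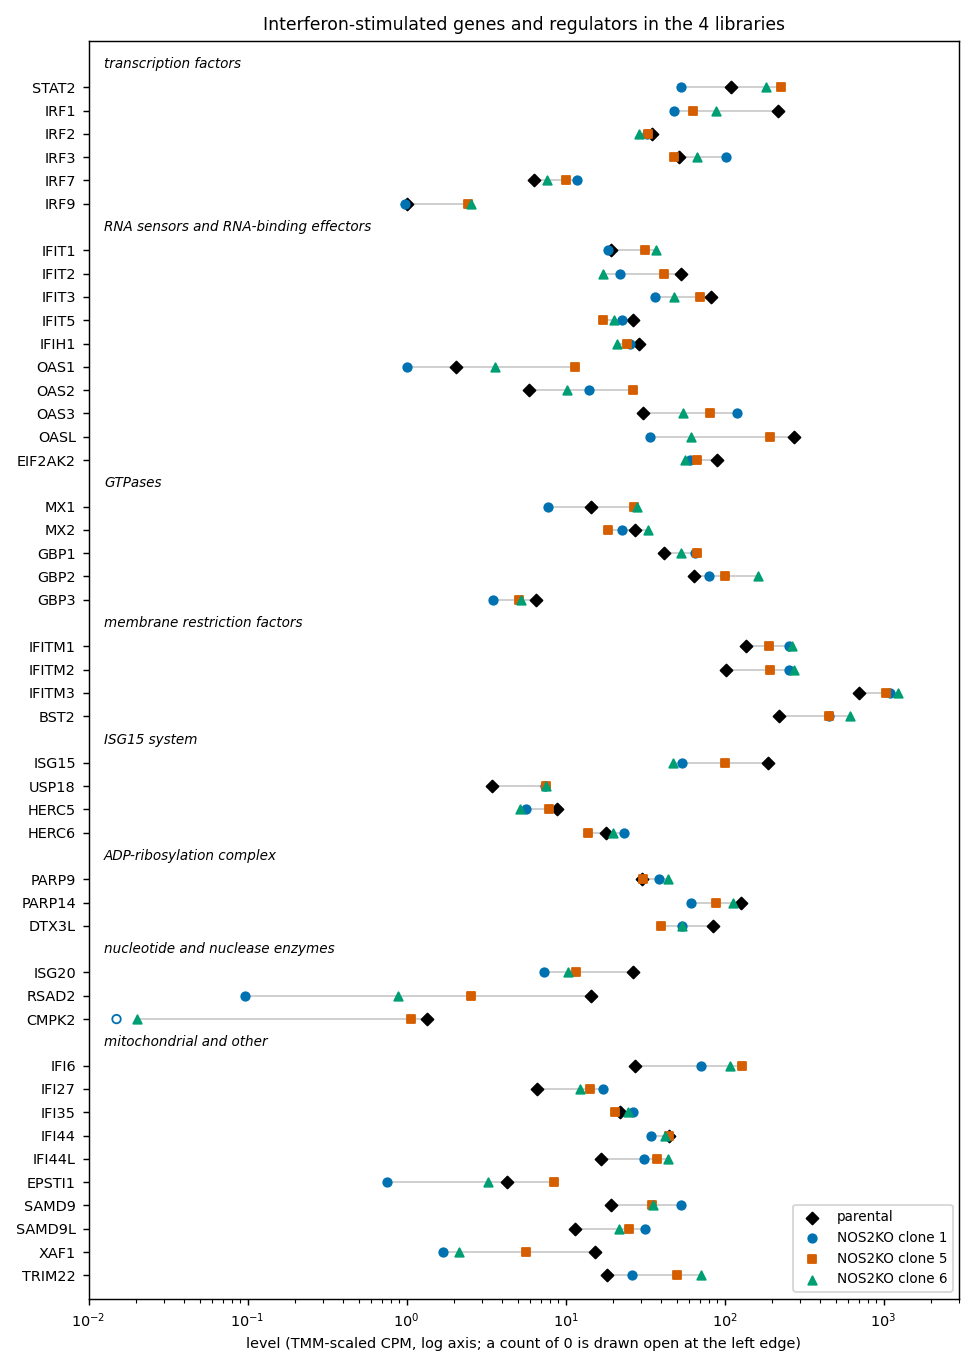
Level of each of the 45 genes in TMM-scaled CPM (log axis) in the parental library (diamonds) and in NOS2KO clones 1 (circles), 5 (squares) and 6 (triangles), grouped by role. The grey line joins the lowest and the highest library, and the open circle for CMPK2 marks 0 counts in clone 1. IRF1, ISG15 and XAF1 have their highest level in the parental library, while all 4 membrane restriction factors have their lowest level there. Of all tested genes at 1 CPM or more, 34.1% were highest and 28.2% lowest in that library.

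Of 10 RNA sensors and RNA-binding effectors, OAS3 alone met the criterion. The oligoadenylate synthetases OAS1, OAS2 and OAS3 make short signalling oligonucleotides when they bind double-stranded RNA. OAS3 (ENSG00000111331, chr12:112938352-112973249) was at 30.6 CPM in the parental library and at 120, 81.2 and 54.7 CPM in clones 1, 5 and 6. Every clone was above the parental value, with a log2 fold change of 1.48 ± 0.49 (SE, adjusted p = 0.416). OAS2 was also lowest in the parental library, at 5.91 CPM against 14.1, 26.5 and 10.2 CPM. Its log2 fold change of 1.52 ± 0.62 had a p of 0.0809 and did not meet the criterion.

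OAS1 levels were 2.05 CPM in the parental library and 1.01, 11.5 and 3.62 CPM in the clones. The clones spanned a 10.4-fold range on both sides of the parental value, and labelled clone 5 stood highest. OASL, a relative that lacks the synthetase activity and supports RIG-I signalling, had 275 CPM in the parental library and 34.2, 194 and 61.1 CPM in the clones. All clones were below the parental library, but labelled clone 5 was close to it, and the log2 fold change of -1.51 ± 1.00 had a p of 0.169. OASL lies on chromosome 12 apart from the cluster of OAS1, OAS3 and OAS2, whose fitted changes were all positive.

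The other 6 genes of this group differed less. IFIT1, IFIT2, IFIT3 and IFIT5, which bind viral RNA ends or partner with proteins that do, had log2 fold changes of 0.58, -0.98, -0.67 and -0.42 although they lie next to each other on chromosome 10. IFIT2 was at 53.3 CPM in the parental library and at 21.9, 41.7 and 17.1 CPM in the clones. The cytosolic double-stranded RNA sensor IFIH1 (MDA5) ranged from 21.1 to 28.9 CPM. EIF2AK2, the kinase PKR that halts translation when it binds double-stranded RNA, had 89.9 CPM in the parental library and 56.8 to 67.4 CPM in the clones. The log2 fold change was -0.54 ± 0.27 and did not meet the criterion.

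No GTPase of the 5 measured met the criterion. MX1 and MX2 form rings that trap viral components, and GBP1, GBP2 and GBP3 coat the vacuoles of intracellular pathogens. MX1 followed the pattern of STAT2, with 14.5 CPM in the parental library, 7.79 CPM in clone 1, and 27.1 and 28.2 CPM in the other two clones. GBP2 was lowest in the parental library, at 64.2 CPM, and highest in clone 6, at 163 CPM. Log2 fold changes of the 5 lay between -0.50 and 0.84.

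All 4 membrane restriction factors had their lowest level in the parental library and their highest in clone 6, and 2 of them met the criterion. Of the 15280 tested genes at 1 CPM or more, 28.2% were lowest in the parental library, 2987 were highest in clone 6 and 11.7% met the criterion. IFITM1, IFITM2 and IFITM3 are similar neighbours whose values are not separate, as given below, so these 4 genes are not 4 independent observations. BST2 (tetherin, ENSG00000130303, chr19:17402939-17405648), which holds budding virus particles at the cell surface, was at 220 CPM in the parental library and at 454, 457 and 616 CPM in the clones. Its groups were apart by more than 1 on the log2 scale, with a clone mean of 509 ± 92.8 CPM (SD, n = 3). The log2 fold change was 1.21 ± 0.35 (SE, adjusted p = 0.368). The IFITM proteins block fusion of viruses with cell membranes. IFITM2 (ENSG00000185201, chr11:307631-315272) had 102 CPM in the parental library and 255, 193 and 274 CPM in the clones, which did not overlap, with a log2 fold change of 1.23 ± 0.34 (adjusted p = 0.356).

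IFITM1 and IFITM3 had smaller differences, 0.81 ± 0.34 and 0.68 ± 0.33 on the log2 scale, and did not meet the criterion. IFITM3 was the most abundant member, at 699 CPM in the parental library and 1032 to 1231 CPM in the clones. IFITM1 and IFITM2 overlap by 1767 bases on the same strand in the annotation used here, and the 3 IFITM genes are near-identical in sequence, so their separate values are uncertain.

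Of the 4 genes of the ISG15 system, ISG15 alone met the criterion. ISG15 (ENSG00000187608, chr1:1001138-1014541), a ubiquitin-like protein that is joined to other proteins during the response, was at 188 CPM in the parental library and at 53.6, 100 and 47.6 CPM in the clones. Every clone was below the parental value, with a log2 fold change of -1.48 ± 0.51 (SE, adjusted p = 0.377). USP18 removes ISG15 from its targets and restrains the receptor. It was at 3.43 CPM in the parental library and at 7.48, 7.57 and 7.55 CPM in the clones, which agreed within a factor of 1.01. Its log2 fold change of 1.14 ± 0.41 had a p of 0.0515 and missed the criterion, although the groups were more than 1 apart on the log2 scale. The ligase HERC5, which attaches ISG15, ranged from 5.18 to 8.84 CPM and its relative HERC6 from 13.9 to 23.3 CPM, with overlapping groups for HERC6.

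PARP9, DTX3L and PARP14, which modify proteins with ADP-ribose and ubiquitin and act on interferon signalling, had log2 fold changes of 0.31, -0.78 and -0.52, and none met the criterion. PARP9 and DTX3L start 339 bases apart on opposite strands and overlap by 340 bases, where reads cannot be assigned without the strand setting. DTX3L was at 84.9 CPM in the parental library and at 54.3, 39.8 and 54.2 CPM in the clones (adjusted p = 0.435). PARP9 was between 30.5 and 44.2 CPM, lowest in the parental library.

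The 3 nucleotide and nuclease enzymes were all highest in the parental library and lowest in clone 1, and only ISG20 met the criterion. Of all tested genes at 1 CPM or more, 34.1% were highest in the parental library and 27.3% lowest in clone 1. ISG20 (ENSG00000172183, chr15:88636153-88656483), an exonuclease that degrades RNA, was at 26.5 CPM in the parental library and at 7.31, 11.6 and 10.3 CPM in the clones. The groups were apart by more than 1 on the log2 scale and the log2 fold change was -1.44 ± 0.41 (SE, adjusted p = 0.342).

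RSAD2 (viperin) makes a chain-terminating nucleotide, and CMPK2 supplies its precursor. RSAD2 (ENSG00000134321, chr2:6865806-6898239) had 1311 counts in the parental library and 11, 270 and 87 counts in clones 1, 5 and 6, or 14.5 CPM against 0.0959, 2.53 and 0.882 CPM. The groups were more than 1 apart on the log2 scale and the fitted log2 fold change was -3.63, the lowest of the set, but the clones differed from each other 13.4-fold with 0.1 CPM added, and with an SE of 1.56 the p was 0.0536. CMPK2 (ENSG00000134326, chr2:6840570-6866635) had 122 counts in the parental library and 0, 113 and 2 counts in the clones. In labelled clone 5 it was thus near the parental level, while in clone 1 it was at least 51.6-fold lower, against a floor of 3 counts per library. Clone 6 stood at a log2 ratio of -6.06 to parental cells (exact 95% interval for counting error alone, -9.12 to -4.17). RSAD2 and CMPK2 start 829 bases apart on opposite strands and overlap by 830 bases, and as the strand setting of the counting is not given in the sources used here, reads in the overlap cannot be assigned.

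Of the 10 mitochondrial and other members, a mixed group, 6 met the criterion, 5 of them with higher levels in the clones. Among tested genes at 1 CPM or more, 11.7% met it in either direction. Several of these calls were lost when a clone was left out, as given below. IFI6 (ENSG00000126709, chr1:27666061-27672218), a mitochondrial and endoplasmic reticulum protein that limits cell death and viral replication, was at 27.5 CPM in the parental library and at 70.9, 130 and 108 CPM in the clones. No clone was within 1 of the parental value on the log2 scale, and the log2 fold change of 1.90 ± 0.41 (SE, adjusted p = 0.332) was the highest of the set. IFI27 (ENSG00000165949, chr14:94104836-94116698), another small hydrophobic protein of the same family, was at 6.66 CPM in the parental library and at 17.3, 14.2 and 12.3 CPM in the clones. These did not overlap and gave a log2 fold change of 1.13 ± 0.38 (adjusted p = 0.413).

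IFI44L (ENSG00000137959, chr1:78619922-78646145) was at 16.8 CPM in the parental library and at 31.4, 37.7 and 44.3 CPM in the clones. All clones were above the parental value, and the log2 fold change was 1.17 ± 0.32 (SE, adjusted p = 0.358). Its neighbour IFI44, 3651 bases away, ranged from 34.4 to 44.8 CPM and was highest in the parental library. The pair of growth-restraining antiviral genes SAMD9 and SAMD9L lie 12032 bases apart on chromosome 7. SAMD9 had 19.4 CPM in the parental library and 53.6, 34.8 and 35.4 CPM in the clones, and SAMD9L had 11.5 CPM against 31.8, 25.1 and 21.6 CPM. In both, clone 1 was highest and the groups did not overlap, with log2 fold changes of 1.09 ± 0.38 (adjusted p = 0.419) and 1.19 ± 0.36 (adjusted p = 0.378).

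XAF1 (ENSG00000132530, chr17:6755447-6775647), a protein that promotes apoptosis by opposing XIAP, was the member of this group that met the criterion with less mRNA in the clones, at 15.3 CPM in the parental library and 1.70, 5.66 and 2.13 CPM in the clones. All clones were more than 1 below the parental value on the log2 scale (log2 fold change -2.28 ± 0.82, adjusted p = 0.386). EPSTI1, named for its induction in epithelial cells by stromal cells, was at 4.26 CPM in the parental library and 0.758, 8.50 and 3.23 CPM in the clones. Clones lay on both sides of the parental value over a 10.0-fold range, and the log2 fold change was -0.03 ± 1.28. TRIM22, a ubiquitin ligase with antiviral activity, had 18.1 CPM in the parental library and 26.0, 50.4 and 70.6 CPM in the clones. Its fitted change of 1.43 ± 0.59 on the log2 scale missed the criterion with a p of 0.0794. IFI35 ranged from 20.5 to 26.5 CPM.

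**Figure D3:**
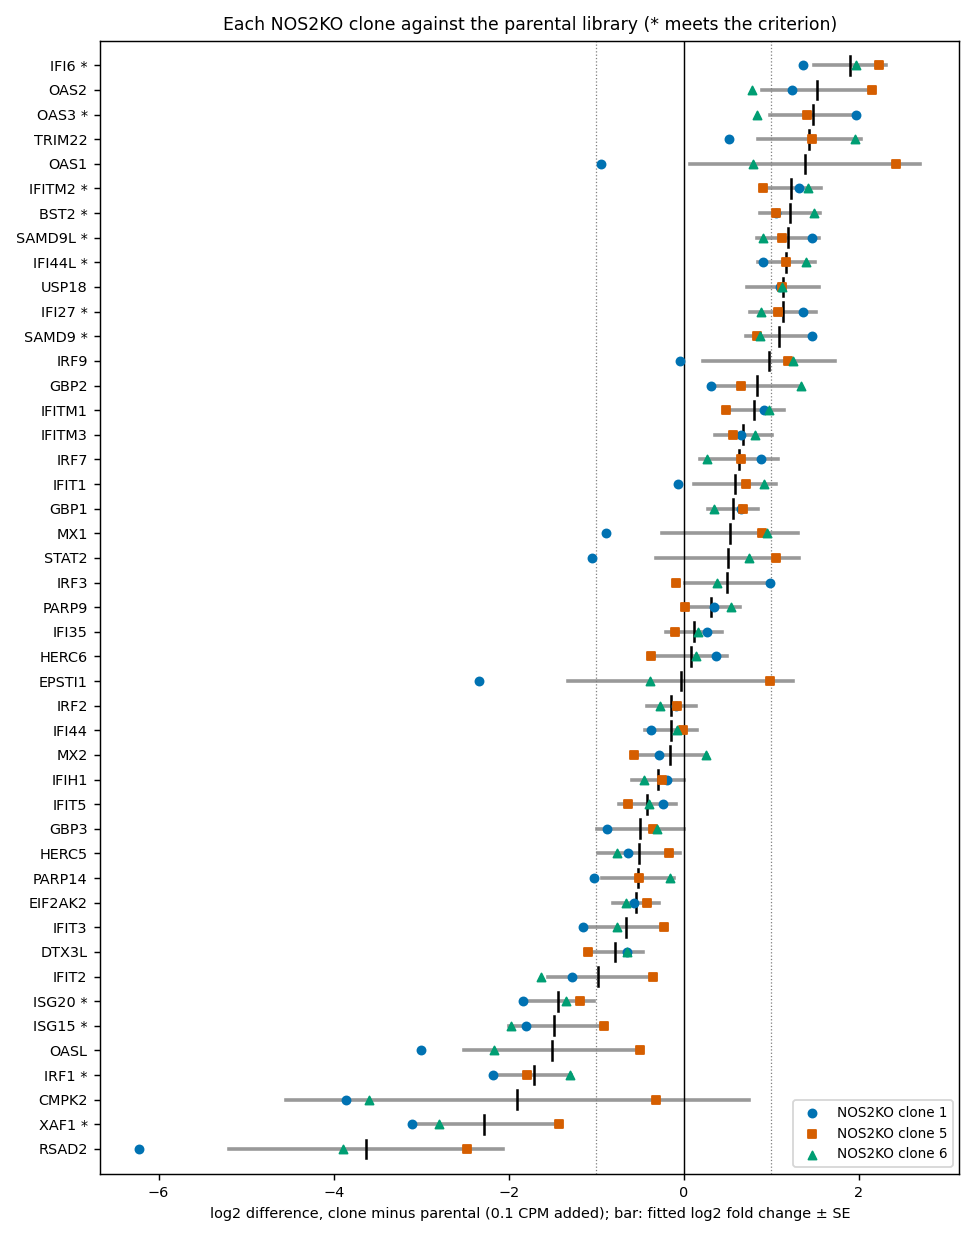
Log2 difference of each NOS2KO clone from the parental library for the 45 genes (0.1 CPM added; circles, squares and triangles for clones 1, 5 and 6), ordered by the fitted log2 fold change (black tick) with its SE (grey bar). Genes marked with an asterisk met the criterion, dotted lines stand at -1 and 1, and the clones lie far apart for RSAD2, CMPK2, EPSTI1 and OAS1.

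The calls of single genes depended on the clones. All 12 members that met the criterion also met it in the 9 fits with another scaling, filter, prior or test. When each clone was left out in turn, IRF1, IFI6 and ISG20 met it in all 3 fits, which have 1 residual degree of freedom. Without clone 6, 2 members met it with lower and 4 with higher levels, beside 3.72% and 2.89% of all genes of that fit. Without clone 1 the counts were 4 and 8, beside 7.34% and 8.18%. IFI27 and SAMD9 did not meet the criterion in any of the 3 fits, with log2 fold changes of 1.00 to 1.24 and 0.86 to 1.22. IFI44L met it only without clone 1, with values of 1.05 to 1.29 over the fits, and ISG15 only without labelled clone 5, with values of -1.87 to -1.29. BST2, IFITM2 and XAF1 lost it without clone 6, where their log2 fold changes were 1.06, 1.13 and -2.06. OAS3 and SAMD9L lost it without labelled clone 5, where theirs were 1.53 and 1.24. In the other direction, OASL and CMPK2 met it without labelled clone 5, at -2.503 and -6.93. RSAD2 met it without clone 1 or without labelled clone 5, at -3.08 and -4.86. OAS2 met it without clone 6, at 1.78, and USP18 without clone 1, at 1.14. The list of gains is not complete, as the counts without clone 1 and without labelled clone 5 each include a further member not named here.

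By overlap alone, the balance of the 2 directions differed from that of the criterion. The parental library was above all 3 clones by more than 1 on the log2 scale for IRF1, ISG20, RSAD2 and XAF1, 4 of 45 members, beside 4.99% of tested genes. It was below all 3 by as much for IFI6, USP18 and BST2, 3 of 45 members, beside 3.86% of tested genes. Among the 15280 tested genes at 1 CPM or more, the parental library was above all 3 clones for 885 and below for 720. With upper quartile scaling these counts were 4 and 6 (4.28% and 4.54% of all genes of that fit), and with scaling by library size 4 and 2 (5.05% and 3.78%). Fewer clones have to lie on the same side when a clone is left out, which raises the shares of all genes too. Without labelled clone 5 the counts were 8 and 4 (6.95% and 5.58% of all genes), without clone 6 they were 4 and 7 (6.24% and 5.57%), and without clone 1 they were 4 and 6 (7.78% and 8.6%). Of the 45 members, 17 had their lowest and 18 their highest level in the parental library, as did 28.2% and 34.1% of the genes at 1 CPM or more.

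Taken singly, the clones differed from the parental library in different members. Clone 1 was lower by more than 1 on the log2 scale for 12 members and higher for 9, where 15.5% and 13% of the genes at 1 CPM or more were. Labelled clone 5 was lower for 5 and higher for 12, beside 12.9% and 14.8%. Clone 6 was lower for 8 and higher for 8, beside 13.5% and 13.8%. The medians of the 45 differences were -0.09, 0.01 and 0.27 in clones 1, 5 and 6, beside -0.07, -0.05 and -0.05 over the genes at 1 CPM or more. Clone 1 held the lowest level of the 4 libraries for 16 members, while labelled clone 5 and clone 6 did so for 6 each, beside 27.3%, 22.8% and 21.7% of the genes at 1 CPM or more.

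Among the clones themselves, 16 of 45 members differed by more than 1 on the log2 scale, a share that can be read beside the 30.9% of all genes at 1 CPM or more. The median range between clones was 0.74 for the members and 0.67 for all such genes. RSAD2, CMPK2, OAS1, EPSTI1, OASL and STAT2 had the widest ranges, of 3.75, 3.54, 3.38, 3.32, 2.503 and 2.10. In all 6 of these genes labelled clone 5 was the highest clone and clone 1 the lowest. RSAD2 in clone 1 stood at a log2 ratio of -7.24 to parental cells (exact 95% interval -8.25 to -6.40), beside -2.52 (-2.71 to -2.33) in labelled clone 5 and -4.04 (-4.37 to -3.73) in clone 6. The intervals of the 3 clones do not overlap, so their differences exceed counting error.

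Levels between genes can be compared per length, as TPM (counts divided by exon length and scaled to a common sum). In the parental library IFITM3 was highest at 1965 TPM, followed by ISG15 at 755, BST2 at 743, IFITM1 at 477 and OASL at 296 TPM. In the clones IFITM3 and BST2 were the highest members, at 2690 to 3329 and 1334 to 2008 TPM, and ISG15 was at 184 to 424 TPM. IRF9 and CMPK2 were the lowest members in the parental library, at 1.01 and 1.19 TPM.

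The other genes of the pathway were taken from 4 lists. Of 22 interferon genes, 16 had 0 counts in every library, among them IFNB1 and all the IFNA genes, which at this depth allows up to 0.0332 CPM. The highest was IFNL1, a type III interferon, with 13 counts in the parental library and 9, 6 and 3 in the clones. Of 18 receptor and signalling genes, 1 met the criterion with lower and 1 with higher levels in the clones, together 11.1%, beside 9.58% of all tested genes. This is near the background, and the median log2 fold change was 0.11. The first was SOCS1, a feedback inhibitor of JAK kinases, at 52.9 CPM in the parental library and at 11.8, 8.26 and 19.9 CPM in the clones. All clones were below it by more than 1 on the log2 scale (log2 fold change -1.99 ± 0.56, adjusted p = 0.337). The other, PTPN6, was chosen after its values were seen and had 2 counts in the parental library and 17, 29 and 19 in the clones.

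Among 25 genes of nucleic acid sensing, 23 were tested, of which 3 met the criterion with lower and 3 with higher levels in the clones. Together these are 26.1%, beside 9.58% of all tested genes and 11.7% of those at 1 CPM or more, which all 23 were. Their median log2 fold change was -0.34. TMEM173 (STING), the adaptor of cytosolic DNA sensing, was at 20.5 CPM in the parental library and at 58.5, 81.1 and 106 CPM in the clones. RNASEH2C, a subunit of the nuclease that removes RNA from DNA hybrids, had 15.0 CPM against 62.7, 40.0 and 42.5 CPM. Both were more than 1 apart from the parental library in every clone, with log2 fold changes of 2.00 ± 0.41 (adjusted p = 0.332) and 1.69 ± 0.37 (adjusted p = 0.332).

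On the lower side were DDX58, TRAF3 and AZI2. DDX58 (RIG-I), the cytosolic sensor of RNA with triphosphate ends, was at 37.3 CPM in the parental library and at 16.1, 17.0 and 15.5 CPM in the clones. TRAF3, a ligase downstream of RNA and DNA sensors, had 226 CPM against 92.5, 48.1 and 73.3 CPM. AZI2, an adaptor of the kinase TBK1, had 56.7 CPM against 28.0, 21.1 and 28.0 CPM. All 3 were more than 1 above every clone on the log2 scale, with log2 fold changes of -1.20 ± 0.29 (adjusted p = 0.332), -1.67 ± 0.44 (adjusted p = 0.332) and -1.14 ± 0.32 (adjusted p = 0.340). Without labelled clone 5, AZI2 no longer met the criterion, at -0.997.

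Of 58 other interferon-stimulated genes, 5 met the criterion with lower and 2 with higher levels in the clones. Together these are 12.1%, beside 11.7% of the tested genes at 1 CPM or more, so the share is that of the background, and the median log2 fold change was 0.05. Without clone 1 the counts were 5 and 7, beside 7.34% and 8.18% of all genes of that fit. WARS, the tryptophanyl-tRNA synthetase, which other stress pathways also induce, was at 963 CPM in the parental library and at 189, 97.9 and 155 CPM in the clones (log2 fold change -2.71 ± 0.45, adjusted p = 0.275). LAMP3, a lysosomal membrane protein, had 293 counts in the parental library and 3, 27 and 4 counts in the clones, and the log2 ratio was -6.95 in clone 1 with an exact 95% interval of -9.24 to -5.39. GBP5, a guanylate-binding protein, had 13.0 CPM against 3.28, 4.14 and 3.35 CPM. PNPT1, a mitochondrial RNA-degrading enzyme, had 87.0 CPM against 34.9, 24.6 and 27.8 CPM. For these 4 genes every clone was more than 1 below the parental library on the log2 scale. The other lower gene, APOL6, an apolipoprotein L family member chosen after its values were seen, had 214 CPM in the parental library and 59.7, 86.6 and 127 CPM in the clones, and its log2 fold change was -1.23 ± 0.48 (adjusted p = 0.419).

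The higher genes of this list were APOBEC3B and APOBEC3C, cytidine deaminases that act on single-stranded DNA and lie near each other on chromosome 22. APOBEC3B was at 4.91 CPM in the parental library and at 108, 28.6 and 36.8 CPM in the clones (log2 fold change 3.56 ± 0.83, adjusted p = 0.356). For APOBEC3C the values were 24.9 CPM against 86.2, 79.7 and 75.1 CPM (1.69 ± 0.26, adjusted p = 0.275). Both were more than 1 above the parental library in every clone. The APOBEC3 genes are similar in sequence, and reads shared between them could move single values.

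**Figure D4:**
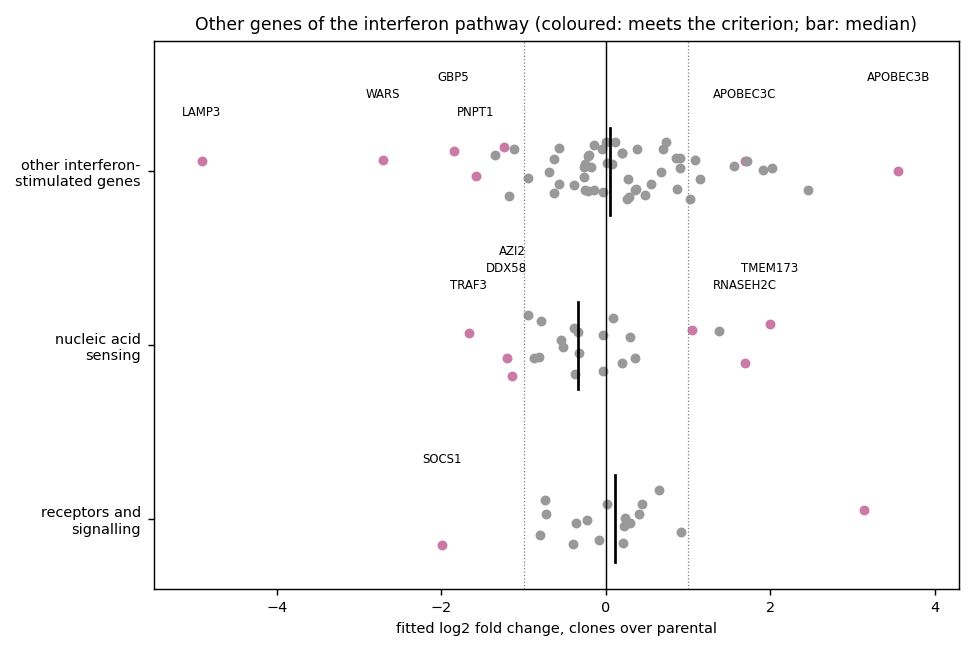
Fitted log2 fold change, clones over parental, of the tested genes of 3 further lists of the interferon pathway (points are spread vertically for legibility). Coloured points met the criterion, some of these are named above their points, black bars are the list medians of 0.11, -0.34 and 0.05, and the lists hold coloured points on both sides of 0.

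Promoter windows of RefSeq, from 250 bases before to 50 bases after the annotated start, were found for 34 of the 45 members. The ISRE core occurred in 25 of these 34 members (73.5%), beside 4.38% of all 27305 genes with a window and 3.57% of all 35116 windows. On the sense strand alone it was found in 16 members, beside 2.09% of all genes. The GAS core occurred in 11 of the 34 (32.4%), beside 9.38% of all genes and 7.66% of all windows, and 5 of the 12 GAS matches overlapped an ISRE match. Among members with a window, the ISRE core was present in 2 of the 4 that met the criterion with lower levels (ISG15 and ISG20), in 6 of the 7 with higher levels (all but SAMD9L) and in 17 of the 23 that did not meet it. Genes with and without the motif letters were thus found on both sides. The presence of these letters is a description of the window and does not show binding. The windows are reference sequence, so the shares describe a set chosen as interferon-stimulated genes and use no value of the libraries.

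**Figure D5:**
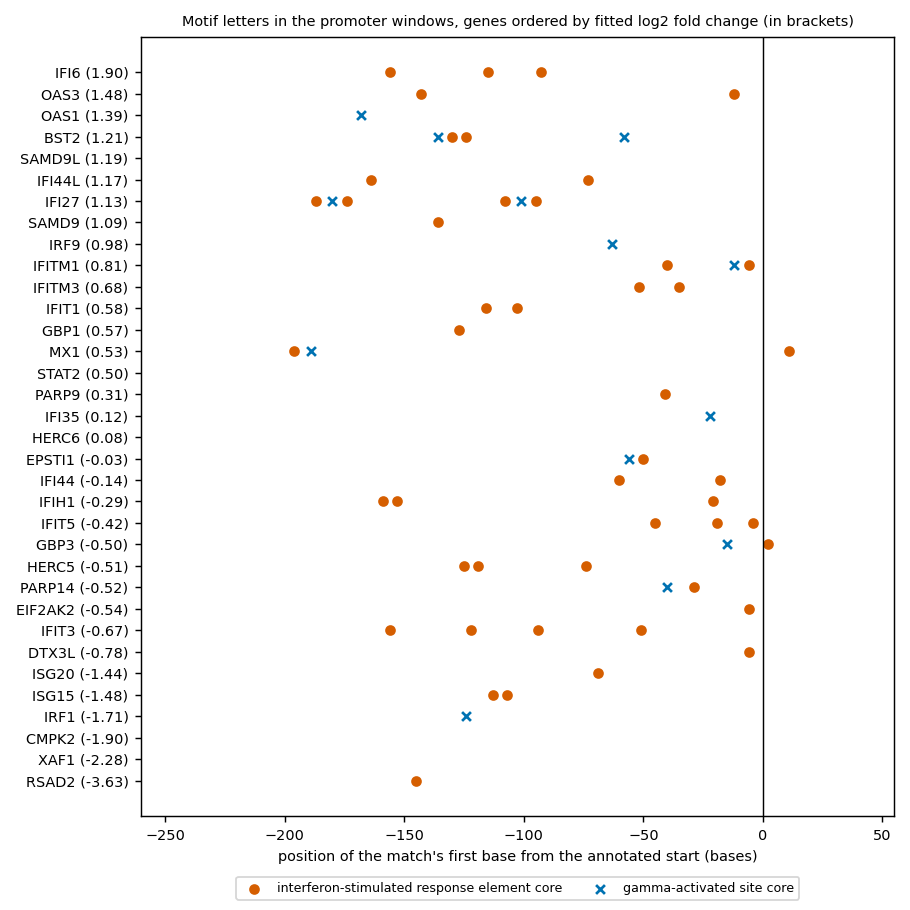
Position of each ISRE core (filled circles) and GAS core (crosses), in bases from the annotated start, in the promoter windows of the 34 members with a window, ordered by the fitted log2 fold change given in brackets. ISRE cores occur among the highest rows (IFI6 and OAS3) and among the lowest (ISG15, ISG20 and RSAD2, there in the window of a later start alone). OAS1 and SAMD9L among the higher rows and XAF1, CMPK2 and IRF1 among the lower have none.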

How the data were processed

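Per the labels, reads were handled with bcl2fastq 2.17, Trimmomatic 0.36, STAR 2.5.2b, featureCounts of Subread 1.5.2 and DESeq2 on GRCh38, and the authors deposited raw counts per gene with the exon length of each gene. The annotation release, the strand setting and the treatment of reads that match several genes are not given in the sources used here. Symbols came from GENCODE release 29, which named 56898 of 57500 identifiers and gave 44 of 45 members the same start and end. Counts were tested in R 4.3.3 with edgeR 4.0.16 (filterByExpr, TMM, glmQLFit and glmQLFTest, common dispersion 0.319, 2 residual and 2.75 prior degrees of freedom), with Benjamini-Hochberg adjustment over 22511 genes, on all 4 libraries and without covariates. CPM is relative to the TMM-scaled library size, TPM uses the deposited length, and 0.1 CPM was added for log2 differences and ranges. Intervals are exact Clopper-Pearson 95% intervals from the counts, and these, like the floor, cover counting error alone. The libraries are separate clones with 1 culture each, so the p-values set the difference from the parental library against the moderated spread between clones. Spread between cultures of a line, the parental line included, was not measured.

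The members and lists were chosen with earlier results of these data known. Every library is given for members that met the criterion, lay beyond all clones by over 1 or differed by over 2 between libraries on the log2 scale, and other members were added for their role. From the lists, genes at 1 CPM or more that met the criterion were named, at most 6 a list. The alternatives tried were scaling by RLE, by the upper quartile or by library size, other filters, robust and bias-adjusted fits, another prior count, DESeq2 1.42.0 and leaving out each clone. The fits and intervals were first tested on simulated data. Tables and figures were made in Python 3.11.15 with pandas 2.3.3, scipy 1.17.1, numpy 2.4.6 and matplotlib 3.10.9. No protein sequences were used here. Values of some single genes of the lists, which are included in the counts, are not reported here.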

Additional observations from a re-analysis of the deposited data

How the results depend on the processing

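The number of members that met the criterion was 12 to 16 over the 9 alternatives that kept all 3 clones, highest with DESeq2's Wald test, with 5 lower and 11 higher, a fit in which 5.08% of all genes met it with lower and 7.07% with higher levels. It was 6 to 12 when a clone was left out, and 6 without clone 6. The median log2 fold change of the members stayed above 0 throughout, at 0.19 to 0.30 with a clone left out. Upper quartile scaling moved the median of all tested genes from 0.10 to 0.20 and that of the members to 0.42. Members with the parental library beyond all clones numbered 7, against 10 to 12 with a clone left out, with 12 without labelled clone 5 and 11 without clone 6, since fewer clones have to lie on the same side. For EPSTI1 the log2 fold change of -0.03 became 0.021 with the 1 CPM filter, 0.018 with library size scaling, 0.10 with upper quartile scaling, and -1.07 to 0.46 with a clone left out. The ISRE core was found in 16 members instead of 25 on the sense strand alone, and in 2.09% of all genes instead of 4.38%. PTPN6 did not meet the criterion with DESeq2's Wald test, with the bias-adjusted fit or with the 1 CPM filter, which removes it. No paired analysis was possible because there is 1 parental library, so the groups share at most 1 number. At 90467395 counts or more, depth limits only the lowest genes (CMPK2, RSAD2 in clone 1, LAMP3, the interferon genes), and the single parental library limits the rest.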
